A study of Mus musculus with 2 samples.

Results

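The genes described here encode the receptors for glutamate, GABA and glycine. They were all protein-coding genes of the RefSeq annotation whose symbols name a subunit of an AMPA, kainate, NMDA or delta glutamate receptor, a metabotropic glutamate receptor, a GABA-A (including rho), GABA-B or glycine receptor. This gave 52 genes of 21887 protein-coding genes: 26 glutamate, 21 GABA and 5 glycine receptor genes. Each was set beside the deposited peaks of H3K27me3, trimethylation of histone H3 at lysine 27, in sciatic nerve. The series holds 1 chromatin immunoprecipitation (ChIP-seq) library made with an antibody to H3K27me3 and 1 input library without antibody, both from male C57/BL6 mice aged 8 weeks. The labels give no treatment or genetic change and no number of animals, and the protocols describe whole minced nerve without cell sorting. The peak list described the ChIP library, and input values were not analysed here. With 1 library there was no replicate and no test, and each value describes that preparation.

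Glutamate is the main excitatory transmitter of the brain and spinal cord, and GABA and glycine are the main inhibitory ones. AMPA, kainate and NMDA receptors are cation channels built from 4 subunits, GABA-A and glycine receptors are chloride channels built from 5 subunits of a separate gene family, and metabotropic glutamate and GABA-B receptors signal through G proteins. Neurons of the nerve keep their cell bodies in ganglia and spinal cord, so most nuclei in the nerve belong to Schwann cells, fibroblasts, vessels and immune cells. H3K27me3 is laid down by Polycomb repressive complex 2, often at CpG-rich starts of genes that are silent in a cell type. Peaks from mixed cells do not tell whether the mark lay in all cells of some types or in part of the cells of each.

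A gene was counted as marked when a peak overlapped its annotated span or the 2 kb on either side. Of the 52 receptor genes, 19 were marked (36.5%, exact 95% interval 23.6 to 51.0), against 10.5% of all protein-coding genes (2302 of 21887). The marked genes were not spread evenly over transmitters. They comprised 14 of 26 glutamate receptor genes (53.8%, 33.4 to 73.4) and 5 of 21 GABA receptor genes (23.8%, 8.22 to 47.2). Of the glycine receptor genes, 0 of 5 were marked (0%, 0 to 52.2). The intervals for glutamate and GABA overlapped, and the difference was not tested. Receptor genes are long, with a median of 160 kb against 17.2 kb over all genes, and a long gene has more room for a peak. When all genes were weighted to the length classes of the 52, the background was 17.1%. The weighted background was 19.1% for the glutamate, 14.9% for the GABA and 16.1% for the glycine receptor genes.

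**Figure D1:**
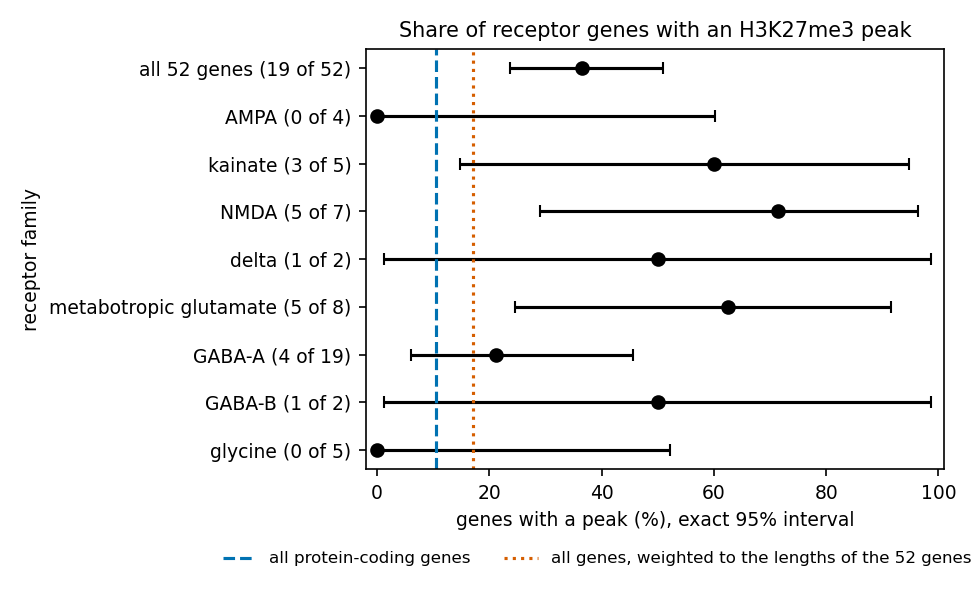
Share of receptor genes with an H3K27me3 peak in the gene or its 2 kb flanks (x axis, percent) by receptor family (y axis, with counts), where points are shares and bars are exact 95% intervals. The dashed line is the share over all protein-coding genes (10.5%) and the dotted line the share weighted to the lengths of the 52 genes (17.1%). NMDA, metabotropic glutamate and kainate genes lay at 60.0% or above, GABA-A genes at 21.1% and AMPA and glycine genes at 0.

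The sequence upstream of the start is shown for 3 marked and 2 unmarked genes, because H3K27me3 often lies over CpG-rich starts and these genes show that CpG content and the mark did not always go together here. The sequences are from RefSeq (GRCm38.p6, the build of mm10), read 5′ to 3′ on the strand of the gene, which is the minus strand for all 5. They end at the annotated gene boundary, and capitals mark each CG. Of the marked genes with a peak within 2 kb of a start, Grin2c (chr11:115267298-115267493), Grin1 (chr2:25319188-25319437) and Gabbr2 (chr4:46991715-46991964) had the most reads among those with at least 150 bases outside the annotated gene. Among unmarked genes with a listed start, Glrb (chr3:80913661-80913910) had the highest and Gabra3 (chrX:72656920-72657169) the lowest ratio of observed to expected CG.
Grin2c: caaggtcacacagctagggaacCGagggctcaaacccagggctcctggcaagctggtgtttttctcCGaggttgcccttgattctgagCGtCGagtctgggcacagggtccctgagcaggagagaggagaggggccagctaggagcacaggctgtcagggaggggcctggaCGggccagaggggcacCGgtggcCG
Grin1: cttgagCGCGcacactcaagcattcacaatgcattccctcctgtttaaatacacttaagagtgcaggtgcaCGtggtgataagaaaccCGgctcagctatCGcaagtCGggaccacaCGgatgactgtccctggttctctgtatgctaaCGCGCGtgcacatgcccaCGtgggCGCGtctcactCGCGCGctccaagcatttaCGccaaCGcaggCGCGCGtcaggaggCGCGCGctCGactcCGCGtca
Gabbr2: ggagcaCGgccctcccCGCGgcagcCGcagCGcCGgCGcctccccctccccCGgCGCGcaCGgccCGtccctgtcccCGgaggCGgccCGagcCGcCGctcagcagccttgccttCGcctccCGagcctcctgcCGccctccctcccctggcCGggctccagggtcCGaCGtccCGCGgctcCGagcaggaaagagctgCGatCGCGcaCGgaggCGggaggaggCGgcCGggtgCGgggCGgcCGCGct
Glrb: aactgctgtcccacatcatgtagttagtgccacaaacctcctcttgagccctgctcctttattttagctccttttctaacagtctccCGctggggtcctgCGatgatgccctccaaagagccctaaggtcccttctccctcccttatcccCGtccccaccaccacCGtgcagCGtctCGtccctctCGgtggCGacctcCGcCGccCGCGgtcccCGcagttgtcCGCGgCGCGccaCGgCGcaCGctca
Gabra3: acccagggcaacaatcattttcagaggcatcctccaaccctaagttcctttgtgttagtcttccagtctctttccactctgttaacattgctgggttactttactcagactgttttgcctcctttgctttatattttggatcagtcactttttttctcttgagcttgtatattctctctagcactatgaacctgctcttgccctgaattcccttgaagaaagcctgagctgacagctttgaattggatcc
The Gabbr2 stretch lay wholly inside a peak and held 37 CG in 250 bases. A peak covered 183 of the 250 Grin1 bases, which held 27 CG. The Grin2c stretch of 196 bases held 7 CG and lay outside the peaks, the nearest of which lay 589 bp downstream of the listed start. This stretch stopped short of that start. Its ratio of observed to expected CG was 0.356, against 0.629 over the 300 bases at the start, so Grin2c was not a CG-poor start among the marked genes. Glrb, with 20 CG and no peak within 1634 kb of the gene, was as rich in CG for its base composition as Gabbr2, with observed to expected ratios of 0.925 and 0.920 over the printed bases. The Gabra3 stretch held no CG. The hexamer GGGCGG, searched on both strands and itself containing a CG, occurred 2 times upstream of Gabbr2, 1 time upstream of Glrb and not in the other printed windows. Over all 21263 promoters of protein-coding genes in the table (300 bases each), 46.2% held GGGCGG and 95.4% held at least 1 CG.

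NMDA receptor genes were the family with the largest marked share, 5 of 7 (71.4%, 29.0 to 96.3). NMDA receptors pair the obligatory subunit encoded by Grin1 with Grin2 subunits, which set channel kinetics, or Grin3 subunits, which lower calcium entry. Grin2c, whose subunit is best known from cerebellar granule cells, had 172 reads in 5 peaks (Poisson 95% interval 147 to 200), the most of any receptor gene. From the first to the last, its peaks held 54, 11, 46, 26 and 35 reads in order of rising coordinate. They formed a domain of 17308 bp when peaks within 5 kb were joined (chr11:115249347-115266654). This domain ranked 131 by width among 3818 in the library and overlapped no other protein-coding gene, although its 35-read peak lay within 2 kb of Fdxr. Peaks covered 33.7% of Grin2c and its flanks, so this gene carried the mark along its body, not at its start alone.

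The other marked NMDA genes held fewer reads. Grin1 had 67 reads in 4 peaks (51.9 to 85.1), and its widest, 1383 bp with 22 reads, covered the start (chr2:25317988-25319370). A Grin1 peak of 13 reads at the far end of the gene also lay within 2 kb of Lrrc26 and Tmem210. Grin2d, a subunit of slow receptors in the developing brain, had 60 reads in 3 peaks of 25, 16 and 19 reads, and none lay within 2 kb of its listed start. The 19-read peak of Grin2d, a gene on the minus strand, lay over its right annotated end, which is its upstream end, and within 2 kb of Kdelr1. This peak ended 4170 bp before the listed start. Grin2a, the main partner of Grin1 in the adult forebrain together with Grin2b, had 1 peak of 28 reads and 1251 bp, 200 bp inside an annotated end (chr16:9994633-9995883). Grin3b, known from motor neurons, had 1 peak of 13 reads that began 190 bp after its listed start and lay within 2 kb of Wdr18. Grin2b and Grin3a were unmarked, with the nearest peak 995 and 601 kb from the gene.

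Among kainate receptor genes, 3 of 5 were marked (60.0%, 14.7 to 94.7). Grik3 had 127 reads in 4 peaks (106 to 151), which became 103 when reads were apportioned to the part of each peak inside the gene and flanks. Its widest peaks lay on both sides of the start. One of 3061 bp with 55 reads ended 689 bp before the start (chr4:125486947-125490007), and one of 2002 bp with 46 reads began 54 bp after it (chr4:125490750-125492751). Grik4 had 63 reads in 4 peaks, of which the peak over the start held 26 and the others 16, 11 and 10, all far inside the gene. Grik4 and Grik5 encode the subunits that form high-affinity receptors with Grik1, Grik2 or Grik3. Grik5 had 18 reads in 1 peak over the end opposite its start. Grik1 and Grik2 were unmarked, at 106 and 1099 kb from the nearest peak.

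None of the 4 AMPA receptor genes, which encode the channels of fast excitatory transmission, was marked (0%, 0 to 60.2). The nearest peak lay 497 kb from Gria1, 1744 kb from Gria2, 4270 kb from Gria3 and 1380 kb from Gria4. Of the 2 delta receptor genes, whose products organise synapses through cerebellin proteins, 1 was marked. Grid1 had 93 reads in 2 peaks (75.1 to 114). The wider of these was the widest peak of any receptor gene, at 3780 bp with 76 reads (chr14:34817171-34820950), and it covered an annotated end.

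Of 8 metabotropic glutamate receptor genes, 5 were marked (62.5%, 24.5 to 91.5). In group III, whose receptors inhibit adenylyl cyclase and mostly act at presynaptic terminals, 3 of 4 were marked. Grm4 had 83 reads in 5 peaks (66.1 to 103). One peak of 2092 bp with 42 reads covered an annotated end (chr17:27512043-27514134), and 4 peaks of 500 bp with 10, 11, 10 and 10 reads lay inside the gene. Grm6, the receptor of retinal ON bipolar cells, had 44 reads in 2 peaks, with 34 of them in a peak over the start (chr11:50850373-50851681). Grm8 had 38 reads in 1 peak of 1722 bp over a start (chr6:28133535-28135256). Grm7 was unmarked, 922 kb from the nearest peak. The group II gene Grm3 had 13 reads in 1 peak over its start. The other group II gene, Grm2, was unmarked. Its nearest peak lay 2.47 kb beyond the end opposite its start and 14046 bp from the listed start. In group I, whose receptors couple to phospholipase C, Grm5 had 1 peak of 10 reads, the lowest count in the library, 4328 bp inside an annotated end.

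**Figure D2:**
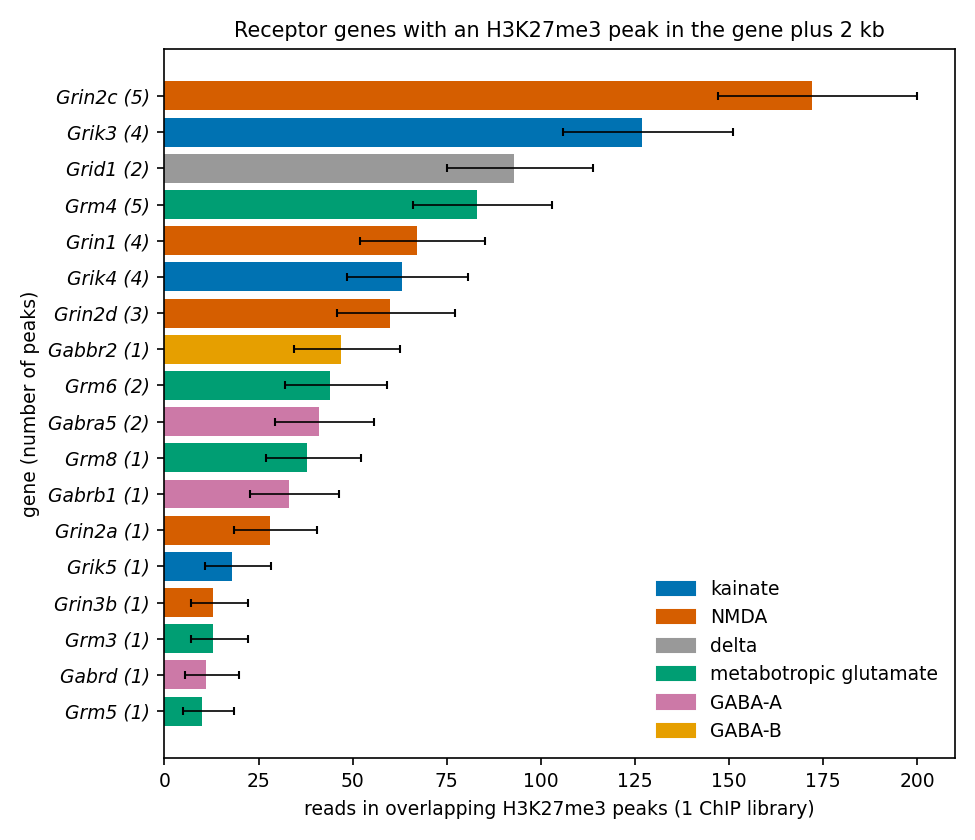
Reads in H3K27me3 peaks overlapping each of 18 marked receptor genes (x axis, reads of 1 ChIP library) with gene and number of peaks on the y axis, where bars are reads coloured by receptor family and lines are Poisson 95% intervals. Grin2c with 172 and Grik3 with 127 reads lie above all others, and 5 genes hold 18 reads or fewer.

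GABA-A receptor genes were marked in 4 of 19 cases (21.1%, 6.05 to 45.6), with 11 to 41 reads each. Gabra5, whose subunit forms mostly extrasynaptic receptors in hippocampus, had 41 reads in 2 peaks. One with 27 reads covered its listed start (chr7:57509012-57510245). The other, with 14 reads, lay over an annotated end of the gene. Gabrb1 had 33 reads in 1 peak of 1705 bp that began 66 bp after the second of its listed starts (chr5:71699998-71701702), and no peak lay within 2 kb of either annotated end of the gene. Gabrd, whose subunit forms extrasynaptic receptors, had 1 peak of 11 reads that also lay within 2 kb of Cfap74.

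Among the unmarked GABA-A genes were Gabrg1, Gabra2 and Gabra4, the neighbours of Gabrb1 on chromosome 5. Gabrg3, also unmarked, lay 122 kb from the nearest peak, and the unmarked Gabra6 and Gabrb2 lay 1455 and 1143 kb from one. Gabrr1 and Gabrr2, neighbours on chromosome 4, were both unmarked, as were Gabrr3 and Gabrp. Gabre, Gabra3 and Gabrq, neighbours on the X chromosome, had no peak. All 6 receptor genes on the X chromosome, these 3 with Gria3, Glra2 and Glra4, were unmarked. Over the whole X, 15 of 966 genes were marked (1.55%), against 11.1% of autosomal genes. Without the X, 19 of 46 receptor genes were marked (41.3%).

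The GABA-B receptor needs both of its subunits, Gabbr1, which binds GABA, and Gabbr2, which couples to the G protein. Gabbr2 had 47 reads in 1 peak of 2089 bp across its start (34.5 to 62.5; chr4:46990443-46992531). Gabbr1 had no peak within 56.3 kb. None of the glycine receptor genes, the alpha genes Glra1 to Glra4 and the beta gene Glrb, was marked. The nearest peak to a glycine receptor gene was 199 kb from Glra1.

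Of 33 unmarked receptor genes, 27 were over 100 kb from the nearest peak. The median distance of the 33 was 604 kb, with a range of 2.47 to 4677.0 kb. These distances were not computed for all unmarked protein-coding genes, so they do not set receptor genes apart. A flank of 5 kb added 1 gene, Grm2, to give 20 marked genes (38.5%, against 11.7% of all genes). The share also exceeded that of all genes under the stricter rules tried. With windows of 2 kb at the annotated ends alone, 17 were marked (32.7%, against 8.59%), and with peaks at or above the median score 15 were (28.8%, against 7.08%). Peaks of at least 20 reads marked 13 (25%, against 5.46%), and peaks wider than 1 kb also 13 (25%, against 4.97%).

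Peaks at receptor genes had median reads and width slightly above those of peaks in or near any gene. The 40 different peaks held a median of 17.5 reads (range 10 to 76) and a median width of 786 bp, against 15 reads and 727 bp over the 3810 peaks in or near any protein-coding gene. The widest of the 40 was 3780 bp, against 26408 bp for the widest of the 3810. A larger set has more room for a wide peak. Of the 40 peaks, 11 held 11 reads or fewer (27.5%, against 30.6% of peaks in or near any gene). The 19 marked genes had a median of 41.0 reads, against 26.0 over all marked genes. Reads were summed over all peaks of a gene, and the marked receptor genes were longer, with a median of 224 kb against 27.6 kb. The reads were not adjusted for length. The median was 52 reads for the 14 glutamate genes and 33.0 for the 5 GABA genes.

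The starts of 36 receptor genes were listed in the promoter table. Among the others, Gria1, Gria3, Grik1, Grin2a, Grin2b, Grin3a, Grid1, Grm4, Grm5, Gabrd and Glra1 had no listed start. Of the 36, 11 had a peak within 2 kb of a start (30.6%, 16.3 to 48.1), against 7.31% of all genes with a listed start and 10.8% after weighting by gene length. They were Grin1, Grin2c, Grin3b, Grik3, Grik4, Grm3, Grm6, Grm8, Gabra5, Gabrb1 and Gabbr2. In 7 of these genes (63.6%) the start itself lay inside a peak, close to the share over all genes marked at a start (774 of 1278, 60.6%). In Grik3, Gabrb1, Grin3b and Grin2c the start lay 54, 66, 190 and 589 bp outside the nearest peak. Within 2 kb of these 11 starts, 74.5% of covered bases lay downstream, inside the gene, against 62.4% over all 1278 genes marked at a start. Start peaks of receptor genes were also larger than their peaks inside genes. The 14 peaks within 2 kb of a receptor gene start had a median of 30.0 reads and 1444 bp. The 16 that lay over 2 kb from any listed start or annotated end had 11 reads and 500 bp. The smallest peaks of the library had 10 reads and 500 bp. Some of the 16 lay in Grid1, Grm4 and Grm5, which had no listed start. The same comparison over all genes was not made.

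**Figure D3:**
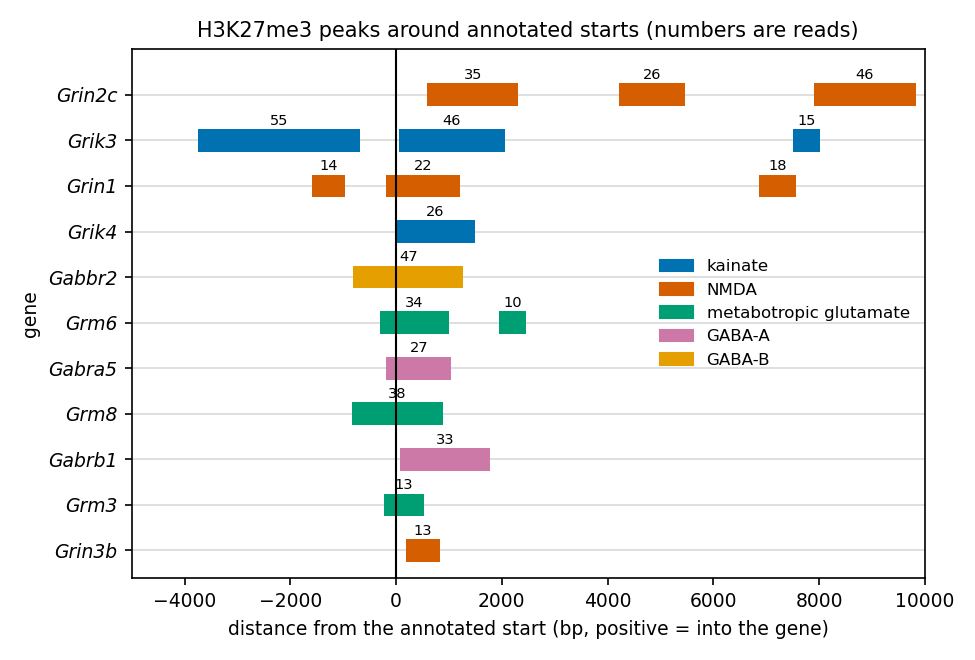
H3K27me3 peaks of the 11 receptor genes marked at a listed start, drawn by distance from that start (x axis, bp, positive into the gene) with 1 gene per line on the y axis. Boxes are peaks coloured by family, with their reads above, and peaks outside the plotted range are left out. Of the 11 starts, 7 lie inside a peak, and Grik3 has a peak on each side of its start.

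CpG content at starts overlapped widely between marked and unmarked receptor genes. Over the 300 bases at each listed start, the ratio of observed to expected CG had a median of 0.629 in the 11 genes marked at a start (range 0.172 to 1.20) and 0.536 in the other 25 (0 to 0.962). Over all genes the medians were 0.632 and 0.553. Grin1, Grik4 and Grik3 had the highest ratios of the 36 genes, at 1.20, 1.16 and 1.01, and all were marked at the start. Grin3b and Grm6 were marked at the start with ratios of 0.172 and 0.218. Gria2 and Grik2 were unmarked with ratios of 0.804 and 0.836. The median ratio was 0.641 for glutamate, 0.541 for GABA and 0.438 for glycine receptor genes with a listed start.

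**Figure D4:**
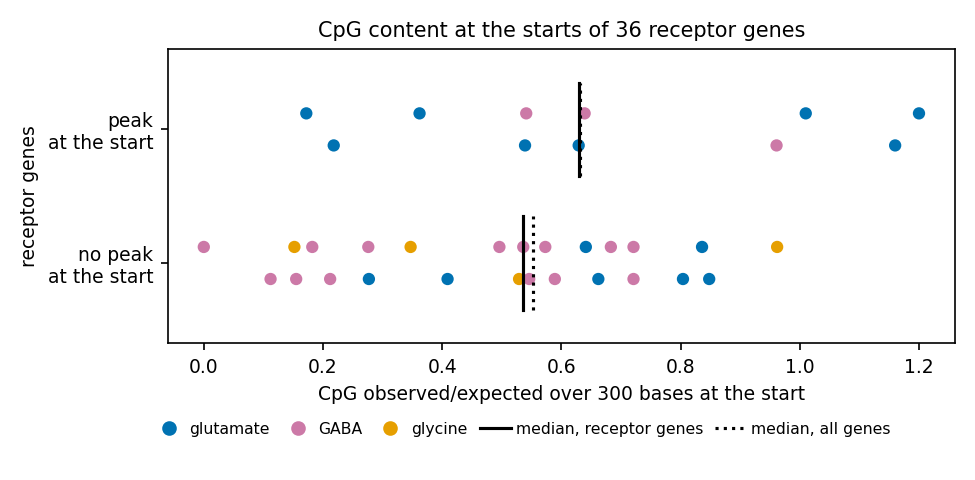
CpG observed/expected ratio over 300 bases at the listed start (x axis) of receptor genes with and without a peak within 2 kb of the start (y axis), where each point is 1 gene coloured by transmitter. Solid lines are medians of the receptor genes (0.629 and 0.536), dotted lines medians of all genes (0.632 and 0.553), and the 2 sets of points overlap.

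Genes that work with these receptors, and other transmitter receptors, were marked in shares of 24% to 61.3%, against the same background of 10.5%. Weighted to the gene lengths of each list, this background ran from 9.92% for other transmitter-gated channels to 15.2% for auxiliary and scaffold genes. Of 40 genes for auxiliary and scaffold proteins, 17 were marked (42.5%, 27 to 59.1), led by Gsg1l, an AMPA receptor auxiliary subunit (107 reads), and the postsynaptic scaffolds Shank1 and Shank2 (97 reads each). Of 20 genes for transmitter synthesis and transport, 9 were marked (45%, 23.1 to 68.5). Their marked members held a median of 117 reads, led by the vesicular GABA and glycine transporter Slc32a1 (296), the GABA-synthesising enzyme Gad1 (260) and the vesicular glutamate transporter Slc17a7 (206). Other transmitter-gated channels, the nicotinic, serotonin and purinergic families, had 6 of 25 marked (24%, 9.36 to 45.1), led by the neighbours Chrnb4 (83 reads) and Chrna3 (66) and by Chrna4 (49). G protein-coupled receptors for noradrenaline, serotonin, dopamine and acetylcholine had 19 of 31 marked (61.3%, 42.2 to 78.2), led by Adra2c (96 reads), Adra1a (60) and Adra2b (48). The metabotropic receptor genes for glutamate and GABA had 6 of 10 marked (60.0%, 26.2 to 87.8) and the receptor channels 13 of 42 (31.0%, 17.6 to 47.1). These intervals overlap, and no difference between lists was tested.

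**Figure D5:**
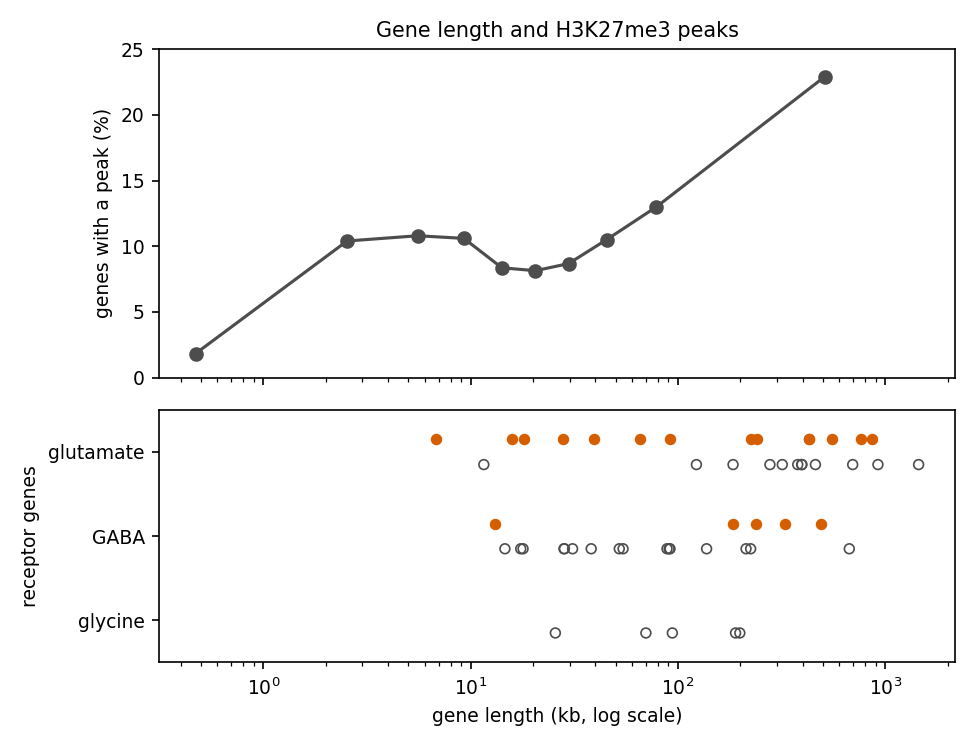
Upper panel, share of all protein-coding genes with a peak (y axis, percent) in 10 classes of gene length (x axis, kb, log scale, drawn at the geometric mean of the class limits). Lower panel, lengths of the glutamate, GABA and glycine receptor genes, with filled points for the 19 marked and open points for the 33 unmarked genes. Of these 52 genes 28 fall in the longest class, where 22.9% of all genes were marked.

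The library held 6018 peaks with 185225 reads, a median of 14 reads per peak and a minimum of 10, which has a Poisson 95% interval of 4.80 to 18.4. All intervals cover counting error only. A peak list does not show which cells were present. Of 8 Schwann cell marker genes, 4 were marked (50.0%, 15.7 to 84.3) with 10 to 18 reads, against 11.3% of all genes weighted to their lengths. Of 8 neuron marker genes, 6 were marked (75.0%, 34.9 to 96.8) with 12 to 268 reads, against 17.1%. Of the fibroblast, endothelium and macrophage markers, 1 of 5, 0 of 4 and 0 of 4 were marked. The length-weighted backgrounds were 10.1%, 14.2% and 12.5%, and the exact 95% intervals reached 71.6%, 60.2% and 60.2%. No difference between marker lists was tested. The part of each cell type in the receptor gene peaks was not tested.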

How the data were processed

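H3K27me3 was measured by ChIP-seq in sciatic nerve, with 1 ChIP and 1 input library. Reads were handled with Bowtie on mm10, per the submitters' processing notes. The sources used here do not give its version, the peak caller, the threshold or the role of the input. The deposited list gives each peak a position and a score made by the authors. Nearly all of the 6018 scores (99.92%) were multiples of 2.5735 to within 0.05. Each score was divided by this step and read as whole reads, an inference from the values.

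Genes and starts came from RefSeq tables of GRCm38.p6, the same build. They give no exons, so exonic and intronic positions were not analysed here. Positions are 1-based. Peaks were intersected with gene spans plus 2 kb (at least 1 bp), and all reads of an overlapping peak were counted. A peak can count for neighbours on both sides, so genes are not independent counts. Background shares were taken over all protein-coding genes, also weighted to 10 classes of gene length. Shares, also those for a count of 0, carry Clopper-Pearson and reads Poisson 95% intervals. The analysis used Python 3.11.15, pandas 2.3.3, NumPy 2.4.6 and SciPy 1.17.1, and the overlap call and score step were tested on simulated data.

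The genes and lists were chosen with earlier results of these data known. By the rule, every marked gene is named with its peaks and reads and every unmarked one by family. Some genes that the rule takes are counted but are not reported by name. Of each other receptor-related list, the 3 genes with most reads are named. Sequences were to come from the 3 genes with most reads among those marked at a start and from 2 unmarked genes. Genes with fewer than 150 upstream bases outside their annotated span were passed over, a condition added after the data were seen. Alternatives were other flanks and windows, gene ends alone, a covered length of at least 500 bp, peaks with higher scores, of at least 20 reads or wider than 1 kb, and autosomes alone.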

Additional observations from a re-analysis of the deposited data

How the results depend on the processing

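The count of marked receptor genes stayed between 13 and 20 of 52 in the 7 alternatives that kept all genes, and was 19 of 46 on autosomes alone. The alternative of at least 500 bp covered could change little, because the narrowest peak of the library was 500 bp wide. Family counts stayed within 1.5 times their value except in 2 families. Metabotropic glutamate genes went from 5 to 3 of 8 with peaks at or above the median score, with peaks of at least 20 reads and with peaks wider than 1 kb. GABA-A genes went from 4 to 2 of 19 with peaks of at least 20 reads and with peaks wider than 1 kb. These settings keep fewer peaks by construction. Weighting to gene length moved the background from 10.5% to 17.1%. The count at starts ranged from 9 to 12 of 36 over its 3 alternatives. Apportioning reads by overlap left 18 of 19 genes within their counting interval, the exception being Grik3 (103 reads). No paired analysis was possible because there was 1 ChIP library.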

Other observations

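Glutamate and GABA receptor genes differed most in the marked share among their shorter genes, in a split by length made after the values were seen. Below the longest of 10 length classes of all genes, which begins at 109 kb, 7 of 8 glutamate receptor genes were marked, against 1 of 13 GABA and 0 of 3 glycine receptor genes and 9.14% of all genes of these lengths. The 7 were Grik5, Grin1, Grin2c, Grin2d, Grin3b, Grm4 and Grm6. The eighth, Grm2, was unmarked, with the nearest peak 2.47 kb beyond the end opposite its start. Gabrd was the marked GABA receptor gene. Of the unmarked shorter genes, Gabre, Gabrq and Glra4 lie on the X chromosome, whereas the shorter glutamate receptor genes are all autosomal. Over all genes, 1.55% were marked on the X and 11.1% on autosomes, and the split by length was not adjusted for this. Among genes in the longest class, 7 of 18 glutamate and 4 of 8 GABA receptor genes were marked, against 22.9% of all genes of that class.

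The pore-forming AMPA receptor genes had no peak, while 7 of 11 genes for their auxiliary subunits did (63.6%, 30.8 to 89.1, against 10.5% of all genes). This grouping was made after the values were seen, and its background was not weighted to gene length. The marked ones were Gsg1l (107 reads), Cacng8 (56), Shisa6 (51), Cacng7 (49), Shisa9 (38), Cacng4 (24) and Cnih3 (15), and Cacng2, Cacng3, Cacng5 and Cnih2 were unmarked. Of the 4 Kctd genes for auxiliary subunits of the GABA-B receptor, 2 were marked (50.0%, 6.76 to 93.2, against 10.5% of all genes). These were Kctd16 (47 reads) and Kctd8 (11 reads, near the lowest count of 10), and Kctd12 and Kctd12b were unmarked. Gphn, which encodes the anchor gephyrin of glycine and GABA-A receptors, had 1 peak with 47 reads, while none of the glycine receptor genes had one. No explanation of these differences was tested.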
